A study of Homo sapiens with 6 samples.

Results

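The RNAs described here are 8 long noncoding RNAs (lncRNAs) that are either known for their link to the tumor suppressor p53 or are retained in the nucleus: MALAT1, NEAT1, MIR34AHG, PURPL, LINC-PINT, TP53TG1, PVT1 and PANDAR. They were chosen by name, as the rows of the gene count table whose Ensembl identifiers carry these symbols. All 8 have a row among the 58336 genes of the table, of which 14367 are annotated as lncRNA genes. A2780, an ovarian cancer cell line, was exposed to 6 µM TH-588 for 48 h or to DMSO vehicle, for a time the labels do not give. From either arm, 3 replicates, lettered A to C, were sequenced. TH-588 is an inhibitor of the Nudix hydrolase MTH1 that also stalls cells in mitosis. All cultures were of this 1 line and shared the same RPMI medium with serum, insulin and antibiotics, and no other cell line stands beside it as a control.

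A lncRNA is transcribed like a messenger RNA but acts as RNA. MALAT1 is retained in nuclear speckles, the bodies that store splicing factors, and NEAT1 is the scaffold of the paraspeckle, a nuclear body built from its long isoform and a set of RNA-binding proteins. p53 binds DNA at pairs of a short half-site and switches on genes that arrest the cell cycle or kill the cell. Several lncRNA genes are among its known targets: MIR34AHG is the host transcript of the microRNA miR-34a, PURPL and LINC-PINT are induced by p53, PANDAR is transcribed from the CDKN1A promoter region, and NEAT1 carries a p53 response element. PVT1 is the neighbor of the MYC oncogene and is often amplified with it.

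Sequences were printed where a feature of the members bears on what could be measured. Promoter windows of RefSeq on GRCh38.p14, running from 250 bases before to 50 bases after a start site, were used for 5 of the 8 genes (all but NEAT1, PVT1 and PANDAR), as 9 windows. Each window was searched for the p53 half-site of 10 bases, named here without its letters, which reads alike on both strands, and for pairs of half-sites 0 to 13 bases apart that do not overlap. Among all 35116 windows, 6.63% held a half-site and 10, or 0.0285%, held such a pair. The window of PURPL held a pair, and none of the windows of MALAT1, MIR34AHG, TP53TG1 and LINC-PINT held a half-site. The start of LNCTAM34A, an antisense RNA that overlaps MIR34AHG, also held a pair. Both windows follow 5′ to 3′ with the paired half-sites in capitals, for PURPL chr5:27472042-27472341 (plus strand, pair from base -127 to -108 of the start site) and for LNCTAM34A chr1:9181954-9182253 (plus strand, -60 to -41). Such a match is a description of letters and not a binding site. The pair at LNCTAM34A also lies within MIR34AHG, past the 50 bases after its start that the MIR34AHG window covers. The search therefore does not show that MIR34AHG lacks a pair near its start.
PURPL: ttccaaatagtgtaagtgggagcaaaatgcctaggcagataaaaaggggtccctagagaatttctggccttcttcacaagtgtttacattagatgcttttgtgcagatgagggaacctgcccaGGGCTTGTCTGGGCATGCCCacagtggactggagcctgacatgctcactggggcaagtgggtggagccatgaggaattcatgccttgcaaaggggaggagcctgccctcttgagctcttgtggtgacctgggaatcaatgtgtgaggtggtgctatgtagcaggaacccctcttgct
LNCTAM34A: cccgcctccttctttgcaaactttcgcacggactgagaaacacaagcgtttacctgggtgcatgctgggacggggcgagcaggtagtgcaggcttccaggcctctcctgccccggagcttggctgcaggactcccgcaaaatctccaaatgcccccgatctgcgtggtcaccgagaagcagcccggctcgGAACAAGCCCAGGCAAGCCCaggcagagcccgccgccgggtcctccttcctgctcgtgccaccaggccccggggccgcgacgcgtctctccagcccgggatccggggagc

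MIR34AHG contains the hairpin of miR-34a, whose 5p arm lies at chr1:9151735-9151756 on the minus strand of GRCh38.p14. Its mature form is shown because a list of its targets is described further on, with the seed (bases 2 to 8) in capitals.
hsa-miR-34a-5p: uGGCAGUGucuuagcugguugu

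The labels describe the RNA as polyA RNA. The mature end of MALAT1 is not polyadenylated but closed by a triple helix with an A-rich tract, and the long NEAT1 isoform ends in the same way. The longest run of A in MALAT1 is therefore given, in capitals with 30 bases on either side. It spans 13 bases, 8411 to 8423 of the gene's 8829 bases, and is read here from chr11:65506068-65506140 of GRCh38, on the plus strand. Whether this run had a part in the capture of the RNA was not tested.
MALAT1: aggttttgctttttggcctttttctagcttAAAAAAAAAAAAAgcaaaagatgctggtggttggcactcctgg

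Total counts ran from 77634048 to 99074175 in 5 libraries and came to 28537837 in TH-588 replicate A, where the small nucleolar RNA SNORD3A took 21.94% of counts against 7.681% to 12.95% in the others. The lncRNA genes took 1.077% to 1.124% of counts with DMSO and 1.813% to 2.014% with TH-588. Of the 14367 lncRNA genes, 79.16% were at 0 in all 6 libraries, against 14.97% of protein-coding genes. Genes that cells generally use, namely RMRP, RPPH1 and RN7SK, were also listed at 0. A 0 in this table therefore does not show that an RNA is absent. These RNAs are not polyadenylated and the labels describe polyA RNA, so they cannot show how often polyadenylated lncRNAs were missed. Of the markers that could check the label of the line, PAX8, KRT7 and CDH1 had at most 2 counts in any library. WT1 had at most 7, KRT8 at most 13 and MUC16 at most 15, while EPCAM, KRT18 and VIM were measured in all.

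Of the 8 lncRNAs, 2 (MALAT1 and NEAT1) passed the filter on low counts, and both rose with TH-588. Over all genes 15844 passed, and 49.6% of them were called at an adjusted p under 0.05, 24.2% higher and 25.3% lower. Among the 479 lncRNA genes that passed, 105 (21.9%) were called, with 73 (15.2% of the 479) higher and 32 (6.68%) lower. Their median log2 change was 0.27, against 0.02 over all genes tested. The groups of MALAT1 and NEAT1 did not overlap, and of all genes tested 28.7% lay higher and 29% lower without overlap. In RNA from whole cultures, a change in the share of cells that express a gene cannot be told apart from a change in RNA per cell.

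MALAT1 (ENSG00000251562), a single-exon gene at chr11:65497688-65506516 on the plus strand of GRCh38, was the most abundant lncRNA of every library. Its raw counts were 708704, 765396 and 845835 with DMSO and 452456, 1606289 and 1387504 with TH-588 in replicates A, B and C. Scaled by library size and TMM factors to CPM, a read count normalized for depth, these were 8624, 9275 and 9031 CPM with DMSO and 16904, 14766 and 16625 CPM with TH-588. All 3 treated libraries lay above all 3 DMSO libraries, although the shallowest had the fewest raw counts. The mean went from 8977 ± 329 CPM (SD, n = 3) to 16098 ± 1163 CPM (SD, n = 3). On the log2 scale the change was 0.84 ± 0.08 (SE, with an adjusted p of 6.63e-06 by edgeR's quasi-likelihood test).

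By raw counts MALAT1 ranked 3, 4 and 3 among all genes with DMSO and 2 in each library with TH-588. It made up 78.88% to 79.28% of all lncRNA counts with DMSO and 87.43% to 88.76% with TH-588. Without MALAT1, the lncRNA genes took 0.2242% to 0.2375% of counts with DMSO and 0.2157% to 0.2278% with TH-588, and these ranges overlapped. The larger lncRNA share after TH-588 thus lay in MALAT1. Of its exon bases, 6.207% are shared with other annotated genes, all of them at 0 in every library. Among 478 tested lncRNAs ranked by log2 fold change (1 of the 479 is not reported), MALAT1 was at place 100.

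**Figure D1:**
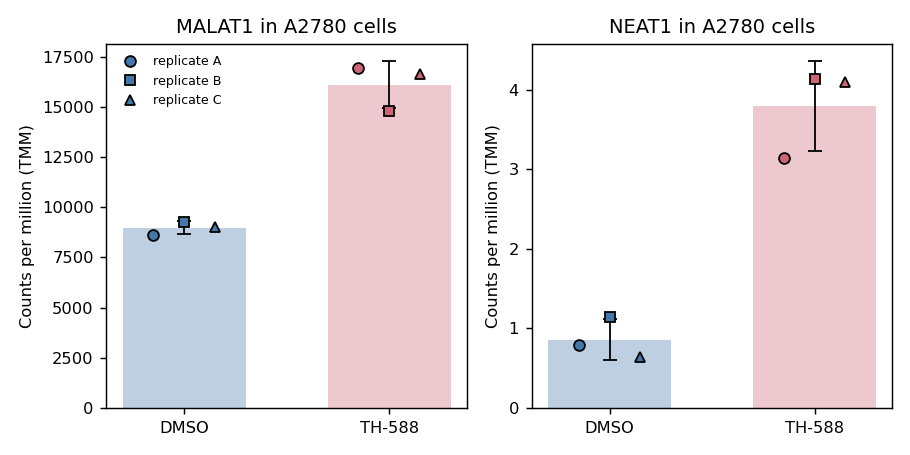
Normalized read count (CPM, TMM-scaled) of MALAT1 and NEAT1 in each library, with 1 symbol per replicate letter. Bars are means and error bars SDs of 3 replicates, and for both RNAs the treated libraries all lie above the DMSO libraries, at 14766 to 16904 CPM for MALAT1 and 3.14 to 4.14 CPM for NEAT1.

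NEAT1 (ENSG00000245532), annotated as 1 exon at chr11:65422774-65445540 on the plus strand, was scarce but rose further. Its counts were 65, 94 and 60 with DMSO and 84, 450 and 342 with TH-588, or 0.791, 1.14 and 0.641 CPM against 3.14, 4.14 and 4.10 CPM. The lowest treated library stood well above the highest DMSO library on the CPM scale, whereas the raw count of TH-588 replicate A lay below that of DMSO replicate B, in a library of far fewer counts. The mean went from 0.857 ± 0.256 to 3.79 ± 0.565 CPM (SD, n = 3 each). On the log2 scale the change was 2.16 ± 0.23 (SE, with an adjusted p of 9.59e-06 by edgeR's quasi-likelihood test), a 4.48-fold rise, which placed NEAT1 at 9 of the 478 ranked lncRNAs. By raw counts it moved from places 11572 to 12339 among all genes with DMSO to places 9782 to 10220 with TH-588. The table has 1 row for NEAT1, so the short and the long isoform, of which only the long one builds paraspeckles, were not separated.

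The genes lie close together on chromosome 11, and their levels differed widely. Per kilobase of exon, MALAT1 stood at 1017 CPM and NEAT1 at 0.0376 CPM with DMSO, and at 1823 and 0.167 CPM with TH-588. In single libraries the per-kilobase level of MALAT1 was 20997 to 36352 times that of NEAT1 with DMSO and 9205 to 13890 times with TH-588. These ratios divide NEAT1 by all of its 22767 exon bases. They would be smaller if its reads came from the short isoform alone, which was not tested. The log2 ratio of NEAT1 to MALAT1 counts went from -13.40 ± 0.40 to -12.06 ± 0.30 (SD, n = 3 each), so NEAT1 gained 2.52-fold on MALAT1. Its groups did not overlap, and the exact two-sided permutation test gave p = 0.1, the smallest p that 3 against 3 libraries allow.

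The other 6 lncRNAs had too few counts for the test and are given as raw counts with exact 95% intervals, which cover counting error only. PURPL (ENSG00000250337, chr5:27472292-27496401, plus strand), which lowers p53 levels through MYBBP1A, had 0, 0 and 3 counts with DMSO and 1, 6 and 1 with TH-588. The ratio of the normalized sums was 3.15, with an interval of 0.755 to 18.4, so a difference was not detectable at this depth. The gene whose start holds the pair of half-sites printed above was thus seen in 4 of 6 libraries with at most 6 reads.

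LINC-PINT (ENSG00000231721, chr7:130938963-131110176, minus strand), which interacts with the Polycomb complex PRC2, had 3, 0 and 1 counts with DMSO and 0, 5 and 4 with TH-588, a ratio of 2.66 (interval 0.741 to 11.8). The groups overlapped. A share of 29.59% of its exon bases is also covered by other genes, MKLN1 among them. PVT1 (ENSG00000249859, chr8:127794533-128101253, plus strand) had 5, 5 and 0 counts with DMSO and 2, 4 and 1 with TH-588, a ratio of 0.826 (interval 0.267 to 2.40), and its groups overlapped too.

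PANDAR (ENSG00000281450, chr6:36673621-36675126, minus strand), which binds the transcription factor NF-YA, had a single read, in TH-588 replicate B. Of its exon bases, 86.99% are shared with the pseudogene LAP3P2, itself at 0. How reads on shared bases were counted is not stated, so most of PANDAR may not be countable here. MIR34AHG (ENSG00000228526, chr1:9148011-9198906, minus strand) and TP53TG1 (ENSG00000182165, chr7:87325225-87345515, minus strand), a p53-inducible RNA that acts on YBX1, were at 0 in all 6 libraries. A count of 0 allows a level of up to 3 counts, which is 0.0276 to 0.0365 CPM in 5 libraries and 0.112 CPM in TH-588 replicate A. Over a whole group the limit was 0.0116 CPM for DMSO and 0.0137 CPM for TH-588. These limits hold only for exon bases whose reads were counted, and TP53TG1 shares 32.65% of its exon bases with other genes. The microRNA gene MIR34A and LNCTAM34A, which overlap MIR34AHG, were at 0 as well.

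**Figure D2:**
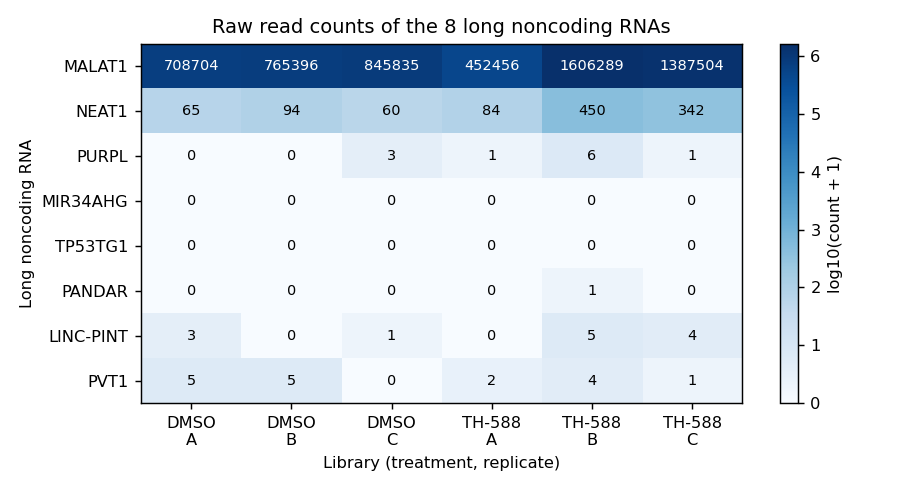
Raw read counts of the 8 lncRNAs (rows) in the 6 libraries (columns, treatment and replicate letter), shaded by log10(count + 1). MALAT1 holds 452456 to 1606289 reads and NEAT1 60 to 450, while no other lncRNA of the set exceeds 6 reads in any library.

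Other lncRNAs with a link to p53 were read from a list of 10, of which 5 passed the filter, DINOL only through its TH-588 libraries. Of the other 4, 2 were called higher and 1 lower, and 24.2% and 25.3% of all genes tested were called in these directions. DINOL (ENSG00000285244, chr6:36677609-36678559, minus strand), a damage-induced RNA inside the CDKN1A locus that stabilizes p53, had 0, 0 and 2 counts with DMSO and 16, 25 and 33 with TH-588. The ratio of normalized sums was 43.7. A gene that passes the filter only where it is high had to differ, so no test is given for DINOL. Neither this ratio nor the separation of its groups is read as a test. Its fitted log2 fold change of 5.38 rested on 2 DMSO reads, going to 7.89 without DMSO replicate C, 4.90 without DMSO replicate B and 4.92 without DMSO replicate A. DINOL shares 15.35% of its exon bases with CDKN1A on the opposite strand. The libraries do not mark strand, so reads of the neighbors on shared bases cannot be told apart.

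H19, an imprinted growth-related RNA, was at 1.36, 1.21 and 0.833 CPM with DMSO and 3.70, 2.76 and 2.28 CPM with TH-588, a log2 change of 1.33 ± 0.24 (SE, adjusted p = 0.000636 by edgeR). NORAD, which holds Pumilio proteins in the cytoplasm, rose by 0.51 ± 0.14 on the log2 scale (SE, adjusted p = 0.00889 by edgeR), from 5.55 to 7.50 CPM over the DMSO libraries to 8.14 to 9.50 CPM. GAS5, a growth-arrest RNA that hosts small nucleolar RNAs, fell by 0.63 on the log2 scale (SE 0.16, adjusted p = 0.00597 by edgeR). Its treated libraries lay at 121, 73.8 and 74.7 CPM, below the 127 to 147 CPM of DMSO, with TH-588 replicate A closest to them. TUG1 had 20, 11 and 8 counts against 1, 20 and 6, and MEG3, LINC-ROR and CDKN2B-AS1 were at 0 throughout.

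The p53 program around these lncRNAs was measured through protein-coding targets. All 10 of a list of direct targets were called higher, against 24.2% of all genes tested, and their median log2 change was 2.42. The largest were GDF15, a stress cytokine, at 5.85, CDKN1A, which encodes the cell-cycle inhibitor p21, at 4.71, the antiproliferative gene BTG2 at 3.40 and TP53I3, a redox enzyme, at 2.79. These genes were known to have risen in these libraries when the list was chosen, so their direction and range are a description. NEAT1, at 2.16, lay within the range of this list and MALAT1, at 0.84, below it, since its lowest member, TNFRSF10B, was at 1.21.

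The windows with a pair of half-sites allowed a look at other genes with the letters seen at PURPL, a choice made after values were seen. Of the 10 windows, 6 belong to genes of the count table and 4 of these genes passed the filter, PTCHD4 only through its TH-588 libraries, so no share of risers is read from them. DYNC2H1 had a log2 fold change of -0.24 (adjusted p = 0.0699 by edgeR). DDB2, a DNA-damage recognition protein, was at 38.6 ± 2.95 CPM with DMSO and 145 ± 8.23 CPM with TH-588 (SD, n = 3 each), and its log2 change was 1.90 (adjusted p = 2.21e-08 by edgeR). PTCHD4, a Patched-related membrane protein, was at 0 in all DMSO libraries and had 16, 45 and 58 counts with TH-588, which is at least 46.8-fold higher when 3 counts over the DMSO group are taken as the limit. MCC had a log2 fold change of 0.36 (adjusted p = 0.0156 by edgeR) and was past the threshold in 13 of 15 alternative settings. PURPL and LNCTAM34A are the remaining 2 and were not tested.

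RNA counts of genes for proteins of the bodies that MALAT1 and NEAT1 occupy were read from lists. Protein levels were not measured. Of 20 genes of paraspeckle proteins, all tested, 11 were called lower and 0 higher. Their median log2 change was -0.26, and 25.3% of all genes tested were called lower and 24.2% higher. SFPQ fell by 0.72 on the log2 scale (adjusted p = 4.41e-05 by edgeR), whereas its partner NONO, at -0.03, and PSPC1, at -0.12, did not pass the test. When only library size was normalized for, 7 of the 20 were called. These genes, and those of the splicing factors that follow, were singled out after their values were seen. Of 20 genes of nuclear speckle proteins, 15 were called lower and 0 higher, with a median of -0.49. The largest falls were in SRSF2, a splicing factor, at -0.97, and in ALYREF, an RNA export adaptor, at -0.95. SRSF2 shares 36.66% of its exon bases with other genes.

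Subunits and cofactors of PRC2, the histone methyltransferase reported to bind several of these RNAs, were read the same way. Of 11, 3 were called higher and 5 lower, with a median of -0.20, against 24.2% higher and 25.3% lower over all genes tested. EZH1 rose by 1.18 (adjusted p = 1.25e-06 by edgeR) and EZH2, the alternative catalytic subunit, fell by 0.92 on the log2 scale (adjusted p = 1.24e-06 by edgeR). The cofactor PHF19 fell by 1.03 on the log2 scale.

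Of 11 genes reported as partners of the members, 1 was called higher and 8 lower, and their median log2 change was -0.49. Over all genes tested, 24.2% were called higher and 25.3% lower. The NF-Y subunits differed, with NFYB at -0.77 (adjusted p = 2.07e-05), NFYC at 0.24 (adjusted p = 0.0248) and NFYA at -0.09 (adjusted p = 0.445, all by edgeR). NFYC was past the threshold in 8 of 15 alternative settings. MYBBP1A, the reported partner of PURPL, was at -0.73, YBX1 at -0.47, the RNA-binding protein ELAVL1 at -0.42, and METTL16, a methyltransferase that binds the MALAT1 triple helix, at -0.63, all past the test. FOXM1, a cell-cycle transcription factor reported to be stabilized by PVT1, fell by 1.01 on the log2 scale (adjusted p = 4.59e-06 by edgeR), and MYC was at 0.18 (adjusted p = 0.0762 by edgeR).

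Of 25 known targets of miR-34a, 20 were tested, with 5 called higher, 7 lower and a median of -0.03, close to the 0.02 of all genes tested. Over all genes tested, 24.2% were called higher and 25.3% lower, and nothing particular to the targets is read from their counts. CCNE2, a cyclin of the G1/S transition, fell by 2.06 on the log2 scale and LDHA, lactate dehydrogenase A, by 1.09. FOSL1, an AP-1 subunit, rose by 2.93. CCNE2 shares 37.14% of its exon bases with other genes. The microRNA itself was not measured by this assay.

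Among 8 other nuclear lncRNAs, 2 were tested. KCNQ1OT1, an imprinting RNA, was at 1.95 ± 0.214 CPM with DMSO and 1.33 ± 0.109 CPM with TH-588 (SD, n = 3 each). Its log2 change was -0.56 with an adjusted p of 0.0310 by edgeR, and it did not pass the threshold in 9 of 15 alternative settings. OIP5-AS1 was at -0.17 (adjusted p = 0.797 by edgeR).

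**Figure D3:**
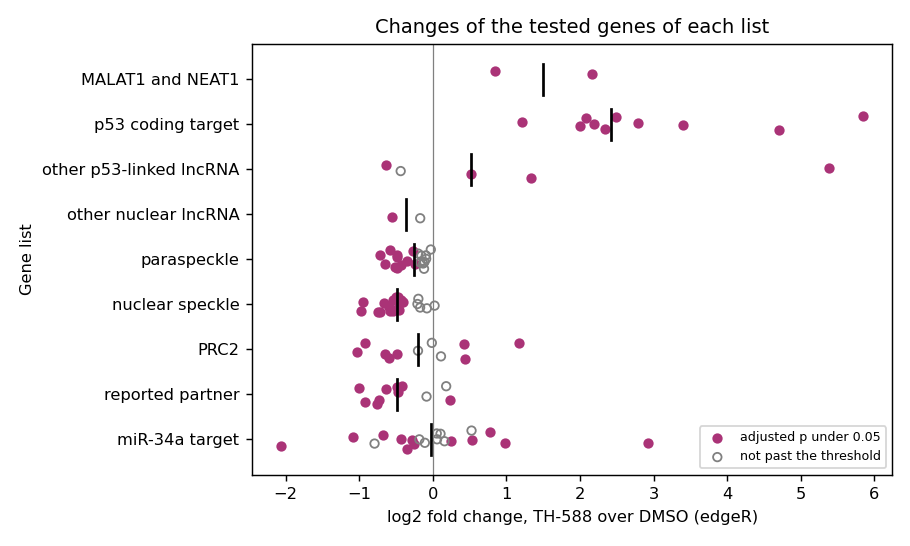
Log2 fold change (TH-588 over DMSO, edgeR) of every tested gene of each list, 1 point per gene, filled where the adjusted p was under 0.05, with a vertical bar at the list's median. DINOL is among the filled points and enters its list's median. It passed the filter only through its TH-588 libraries, so its fill is not read as a test result. The 10 p53 coding targets, known to have risen when chosen, all lie above 0. Genes of the paraspeckle and nuclear speckle proteins have medians of -0.26 and -0.49.

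Genes beside the 8 lncRNAs were examined next, taking the nearest protein-coding gene on either side and every overlapping gene. Of 40 such genes, 16 were tested, with 2 called higher, 1 lower and a median log2 change of 0.08. Over all genes tested, 49.6% were called in either direction. H6PD, a hexose-phosphate dehydrogenase 35869 bases from MIR34AHG, was at 0.78 (32.1 ± 1.20 to 55.1 ± 8.36 CPM, SD, n = 3 each, adjusted p = 7.05e-05 by edgeR). CDKN1A, 1334 bases from PANDAR, went from 5.35 ± 0.460 to 140 ± 24.7 CPM (SD, n = 3 each) while PANDAR had 1 read. The count of PANDAR may be limited by the shared exon bases given above. SRSF3, on the other side of PANDAR, was at -0.67.

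FRMD8, the nearest coding gene 9249 bases before NEAT1, did not pass the test, at 0.08 (adjusted p = 0.665 by edgeR). Other neighbors that did not pass the test had log2 fold changes of 0.08 for CROT, which starts 166 bases from TP53TG1, 0.12 for MKLN1, 0.05 for PODXL and -0.04 for KLF14 around LINC-PINT, 0.02 for GPR157 beside MIR34AHG, 0.00 for TMEM243 beside TP53TG1 and -0.09 for CDH6 beside PURPL. Around PVT1, the overlapping LINC02912, MIR1206 and MIR1207 were at 0.80, 0.76 and 1.45 with adjusted p-values of 0.0838, 0.102 and 0.215 by edgeR.

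Within 500 kb of the NEAT1 start, a window chosen after values were seen, 46 other genes were tested, with 17 called higher, 7 lower and a median of 0.25, against 24.2% called higher and 25.3% lower over all genes tested. SLC25A45, a mitochondrial carrier, was at 1.67 (adjusted p = 1.87e-05 by edgeR), and FAUP4, a pseudogene between NEAT1 and MALAT1, at 1.09 (adjusted p = 0.000375 by edgeR). The extremes were FOSL1 at 2.93 and CDCA5, a cohesion factor of dividing cells, at -1.59. The 17 include NAALADL1, at a mean of 0.0663 CPM with DMSO and 0.257 CPM with TH-588. It was too scarce with DMSO to pass the filter on those libraries alone, so nothing is read from the count of risers. Risers, fallers and genes that did not pass the test lay side by side.

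**Figure D4:**
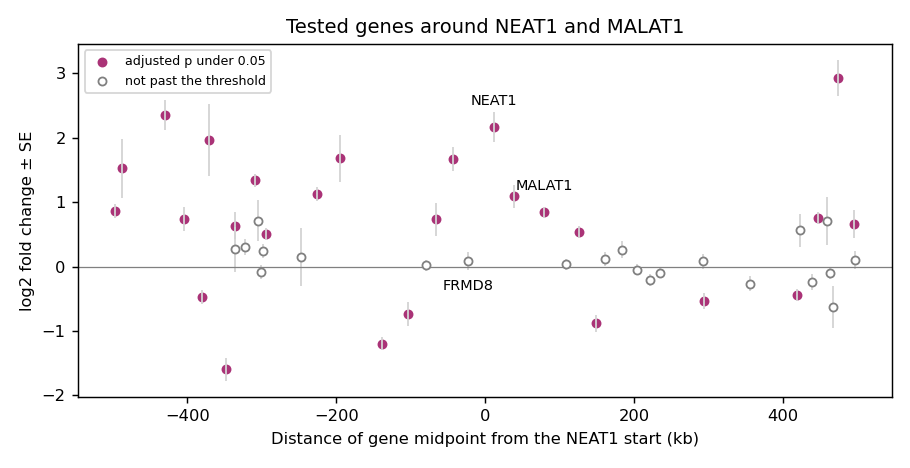
Log2 fold change with its standard error for the tested genes against the distance (kb) of each gene's midpoint from the NEAT1 start, filled where the adjusted p was under 0.05. NEAT1 (2.16) and MALAT1 (0.84) are labelled, as is FRMD8 (0.08), which did not pass the test.

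The genes with profiles most like each tested lncRNA were found among 9750 abundant genes by the root mean square distance of centered log2(CPM + 0.1) over the 6 libraries. For MALAT1 these were ALG13, a glycosylation subunit, LIPA, the lysosomal acid lipase, and CA14, a carbonic anhydrase, at distances of 0.0385, 0.0403 and 0.0430. For NEAT1 they were the stress gene GADD45A, the AP-1 gene JUNB and the apoptosis effector BAX, at larger distances of 0.153, 0.157 and 0.187. The log2 fold changes of the NEAT1 neighbors in profile were 2.26, 1.85 and 2.05. Closeness was taken over the same 6 libraries, so fold changes near that of the lncRNA follow from the choice. No shared regulation is read from them.

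The estimates of MALAT1 and NEAT1 moved little across 15 alternative settings. MALAT1 stayed between 0.82 and 0.94 and NEAT1 between 2.00 and 2.42 on the log2 scale, and both were past the threshold in all 15.

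**Figure D5:**
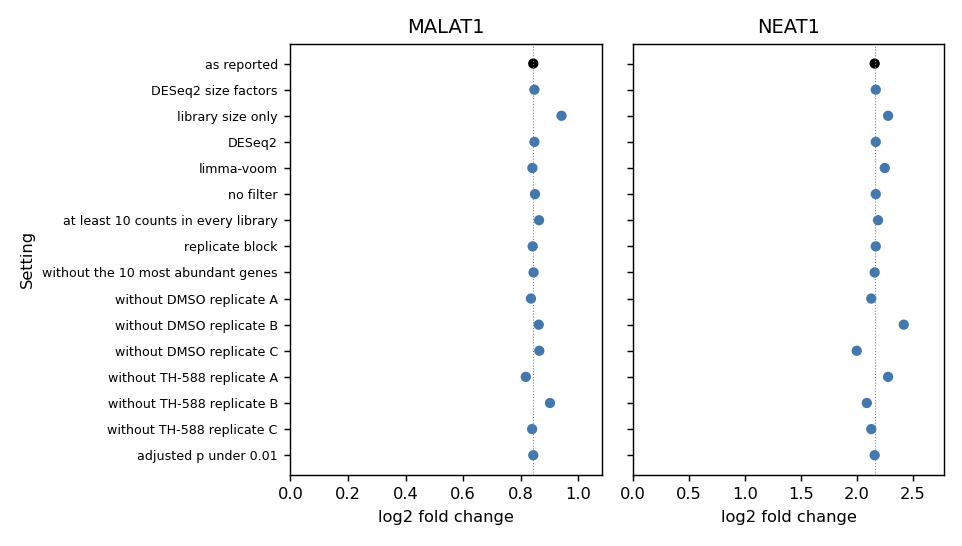
Log2 fold change of MALAT1 (left) and NEAT1 (right) as reported (black) and under each alternative setting (blue), with a dotted line at the reported value. All points lie well above 0, from 0.82 to 0.94 for MALAT1 and from 2.00 to 2.42 for NEAT1.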

How the data were processed

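RNA of A2780 cells was sequenced in 3 DMSO and 3 TH-588 libraries, grouped by the treatment in the labels. The authors aligned reads with TopHat to GRCh38 and deposited raw counts per gene from featureCounts 1.4.6 (Subread), without normalization. How strand, multiply mapping reads and overlapping exons were counted is not given in the sources used here. Libraries were made with a TruSeq kit that does not mark strand. Symbols were matched for 57754 of 58336 genes, of which 99.9% overlap the same identifier in GENCODE release 44.

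Counts were compared with edgeR 4.0.16 in R 4.3.3 by TMM scaling, its default filter on low counts, the quasi-likelihood test and Benjamini-Hochberg adjustment over all genes tested, at an adjusted p under 0.05. The standard error (SE) of a log2 fold change is its size over the root of the F statistic. The procedure was tested on simulated counts. Intervals for scarce RNAs are exact Poisson or binomial intervals at 95%. Reads are not independent molecules, so intervals and limits of 3 counts cover counting error only. Replicates of a group differed by 25.15 to 179.9 in chi-square per degree of freedom, so each library was 1 replicate. The replicates are called biological triplicates, and p-values measure the spread between them.

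Alternatives were DESeq2 1.42.0 and its size factors, limma-voom (limma 3.58.1), library size only, no filter, a minimum of 10 counts per library, a stricter threshold of 0.01, the replicate letter as a block, removal of the 10 most abundant genes, and leaving out each library. The named genes are the 8 lncRNAs, their neighbors and reported partners, up to 4 called genes in each direction per list with an absolute log2 fold change of at least 1, and the 3 genes of closest profile to each tested lncRNA among genes whose mean log2 CPM reached 2. The members and lists were chosen with earlier results of these data known. Some items are not reported here.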

Additional observations from a re-analysis of the deposited data

How the results depend on the processing

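The calls of MALAT1 and NEAT1, and the number of members called (2), held under all 15 alternatives. Over all genes the number called was 7852 and ran from 5831 at an adjusted p under 0.01 to 8225 with limma-voom, and from 6805 to 7914 with each library left out. With library size only, the median of all genes moved from 0.02 to 0.13 and 60.4% of calls were higher, against 48.9%, and the paraspeckle count fell to 7. The count of other nuclear lncRNAs was 0 with library size only, with no filter, under the replicate block and at an adjusted p under 0.01, and 0 to 1 with each library left out. It was 0 without each DMSO library and without TH-588 replicates B and C.

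Libraries with the same letter did not deviate together (correlations -0.0706, -0.0831 and 0.00082). With 3 libraries per group, this cannot show whether cultures of the same letter were set up together, and the labels do not say. The replicate block gave 7195 calls, 7129 of them shared with the fit without it, and MALAT1 was at 0.84 and NEAT1 at 2.17.

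Genes whose sign turned were all uncalled before and after. With library size only, NFYA was at 0.0157, CDH6 at 0.0320, NONO at 0.0792 and KLF14 at 0.0916. TMEM243 was at -0.000168 with DESeq2 and -0.0337 with limma-voom, where KLF14 was at 0.118, and KLF14 was at 0.0334 with the block. With each library left out, the values ran, for PSPC1 from -0.176 to 0.00322, NONO from -0.104 to 0.032, TUG1 from -1.31 to 0.062, KLF14 from -0.379 to 0.337, TMEM243 from -0.0701 to 0.0785, GPR157 from -0.117 to 0.205, CDH6 from -0.3 to 0.0745, FRMD8 from -0.028 to 0.227 and OIP5-AS1 from -0.334 to 0.111. The cause was not tested. Without a filter, the 4 scarce lncRNAs with any count had adjusted p-values of 0.524 to 0.965 by edgeR. A difference in the 6 scarce lncRNAs was not detectable at these counts.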

Other observations

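Other lncRNAs moved as well, named here after their values were seen, as the 5 largest rises and falls among called lncRNA genes whose mean log2 CPM reached 2, with a symbol and no overlap between the groups. Scarcer lncRNAs such as H19 fall outside this rule, and MALAT1 and NEAT1 were left out of it. DLGAP1-AS1, an antisense RNA of a synaptic scaffold gene, was at 2.94 ± 0.400 CPM with DMSO and 12.3 ± 0.768 CPM with TH-588 (SD, n = 3 each), and its log2 change was 2.07 (adjusted p = 2.53e-07 by edgeR). FAM157C and FAM157D, related genes that may share reads, followed at 1.41 and 1.17, and LINC01002 and LINC02887 were both at 0.95. In the other direction were DLEU1 at -1.14, a transcript of a region deleted in leukemia, SNHG1 at -1.03, a host of small nucleolar RNAs, RNF216P1 at -0.92, GAS5 at -0.63 and FAM230C at -0.38. SNHG1 went from 31.4 ± 1.65 to 15.5 ± 1.0 CPM (SD, n = 3 each, adjusted p = 2.81e-06 by edgeR). FAM230C was past the threshold in 9 of 15 alternative settings. Of 9 ovarian and epithelial markers, 3 were tested, and EPCAM and KRT18 were called higher, as were 24.2% of all genes tested. EPCAM, a cell adhesion molecule, had 45, 41 and 83 counts with DMSO and 116, 540 and 410 with TH-588, a log2 fold change of 2.87 (adjusted p = 8.23e-07 by edgeR). KRT18, a keratin, was at 0.88 (adjusted p = 0.00017 by edgeR) and VIM, vimentin, at 0.08 (adjusted p = 0.501 by edgeR). PAX8, WT1, KRT7 and CDH1 had at most 7 counts in any library, KRT8 at most 13 and MUC16 at most 15.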
